A study of Mus musculus with 6 samples.

Results

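The genes described here are 10 receptors and transcription factors of endothelial cells, the cells that line blood and lymphatic vessels. They are Kdr, Flt1, Flt4, Tek, Tie1 and Pecam1, which act at the cell surface, and Erg, Fli1, Sox17 and Sox18, which act in the nucleus. They were chosen by name as 10 of the 21755 protein-coding genes of the autosomes and the X chromosome, by a rule that uses no measured value, although earlier results of these data were known. In each replicate, a gene was given every peak overlapping its body extended by 5 kb at both ends. It was also given every peak up to 100 kb away whose nearest protein-coding start site was its own. By this rule 32 of 16788 peaks in replicate 1, 23 of 12969 in replicate 2 and 27 of 13998 in replicate 3 were assigned to the 10 genes.

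The series profiled whisker pads of wild-type mouse embryos at embryonic day 12, strain B6/J2, that were dissected and digested to freshly isolated single cells. CUT&Tag was performed with an antibody against H3K4me1, the single methylation of lysine 4 on histone H3, in 3 samples, and with IgG in 3 more that were not analysed here. In CUT&Tag a transposase is brought to the marked nucleosomes by the antibody, and it cuts out the fragments that are sequenced. The pad numbers in the titles give the replicate numbers 1, 2 and 3 used here, and the 3 H3K4me1 samples form 1 group without a comparison group. With 1 group no test between conditions could be made, and the values are descriptions with the spread over 3 samples. The source name of replicates 2 and 3 is adult kidney while their titles give whisker pad. Values of replicate 1, whose title and source name both give whisker pad, are therefore given beside the means of the main results. Of 24 adult kidney genes, 6, 5 and 2 had a peak over the gene body or its 5 kb flanks in replicates 1, 2 and 3. Such a peak was present at 24.9%, 22.6% and 19.6% of all genes. The kidney share was close to that of all genes in replicates 1 and 2 and lower in replicate 3. Which label of replicates 2 and 3 is right was not tested.

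Vessels grow toward vascular endothelial growth factors, which endothelial cells bind through the tyrosine kinases encoded by Kdr and Flt1 and, mostly in lymphatic vessels, by Flt4. Tek and Tie1 encode the angiopoietin receptor and its partner, which act as vessels are remodelled and settle. Pecam1 is an adhesion molecule at the junctions between endothelial cells that is also found on platelets and leukocytes. Erg and Fli1 are closely related ETS factors that act in endothelium and blood, and both are also known from other cells, Erg from cartilage and Fli1 from neural crest and its mesenchyme. Sox17 and Sox18 belong to the SoxF group, and mutations of Sox18 disturb vessels and hair in mice. H3K4me1 marks enhancers, in use or not yet in use, and the flanks of start sites, so a gene that only a few cells use contributes to a whole pad in proportion to those cells. In such a mixture, fewer cells that carry the mark and less of the mark in each cell cannot be told apart.

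The DNA under the assigned peaks is shown at 1 position for each member that carried a peak in all replicates, chosen within the region named in each case. Each window holds 300 bases around the highest pileup, the place where most fragments overlapped, on the plus strand of GRCm38 and from 5′ to 3′. Capitals mark short strings in which known factors of these cells read DNA, found on either strand: AGGAAG for ETS factors, AACAGGAA for a combined FOX and ETS site, AACAAT and ACAAAG for SOX factors, AGATAA for GATA factors and TAATTA for homeobox factors. None of the 4 windows overlapped an annotated exon.
Pecam1, intron 13, chr11:106674452-106674751: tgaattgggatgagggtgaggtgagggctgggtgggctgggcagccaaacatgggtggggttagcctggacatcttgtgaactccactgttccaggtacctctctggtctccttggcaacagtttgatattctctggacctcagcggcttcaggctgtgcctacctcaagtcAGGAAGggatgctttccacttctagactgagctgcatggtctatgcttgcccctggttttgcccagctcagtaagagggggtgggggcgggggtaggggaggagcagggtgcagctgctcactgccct
Erg, intron 3, chr16:95423992-95424291: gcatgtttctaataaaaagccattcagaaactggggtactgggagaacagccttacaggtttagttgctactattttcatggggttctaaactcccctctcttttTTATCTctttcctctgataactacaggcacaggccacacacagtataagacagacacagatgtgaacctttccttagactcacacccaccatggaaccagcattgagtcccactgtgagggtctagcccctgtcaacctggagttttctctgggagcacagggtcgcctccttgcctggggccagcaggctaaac
Fli1, upstream of the start site, chr9:32548549-32548848: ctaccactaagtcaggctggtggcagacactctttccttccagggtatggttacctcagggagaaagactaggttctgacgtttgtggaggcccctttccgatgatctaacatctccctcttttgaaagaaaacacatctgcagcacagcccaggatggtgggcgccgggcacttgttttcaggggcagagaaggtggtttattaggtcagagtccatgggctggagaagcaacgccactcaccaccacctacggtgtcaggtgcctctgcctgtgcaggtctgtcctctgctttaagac
Sox18, upstream of the start site, chr2:181673358-181673657: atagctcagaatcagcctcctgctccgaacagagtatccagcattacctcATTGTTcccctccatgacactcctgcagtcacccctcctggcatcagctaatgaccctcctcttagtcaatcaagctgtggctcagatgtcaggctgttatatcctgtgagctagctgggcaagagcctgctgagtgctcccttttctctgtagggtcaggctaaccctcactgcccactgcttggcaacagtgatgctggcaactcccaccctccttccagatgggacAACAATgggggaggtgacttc
The highest pileups of the 3 replicates lay at the same base in the Fli1 region, 1 bp apart in the Erg region and within 28 bp in the Pecam1 region. In the Sox18 region they spread over 3387 bp, and the window lies on the middle one. The Erg and Pecam1 windows are not from the strongest regions of these genes. In those regions the highest pileups spread over 1079 bp for Erg and 587 bp for Pecam1, and over 4556 bp in the start-site region of Erg. The Pecam1 window holds 1 ETS string, the Erg window 1 GATA string on the minus strand and the Sox18 window 2 SOX strings, 1 on each strand. The Fli1 window, under the strongest peak of all members, holds 0 of the strings searched.

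Each of the 10 genes was first asked whether any peak touched it. A peak lay over the gene body or its 5 kb flanks at 6 members in replicate 1, at 4 in replicate 2 and at 5 in replicate 3. The mean was 5.0 ± 1.0 (SD, n = 3) of 10. By the same rule 24.9%, 22.6% and 19.6% of all genes had a peak in replicates 1, 2 and 3. Pecam1, Erg, Fli1 and Sox18 had a peak in all 3 replicates, 4 of 10 genes beside 15.5% of all genes. Flt4, Tek, Tie1 and Sox17 had none in any replicate, 4 of 10 beside 71.2% of all genes. Kdr and Flt1 had peaks in some replicates, and neither had one in replicate 2. The lists keep only the strongest blocks of signal, so H3K4me1 below their floor may still be present at a gene without a peak.

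**Figure D1:**
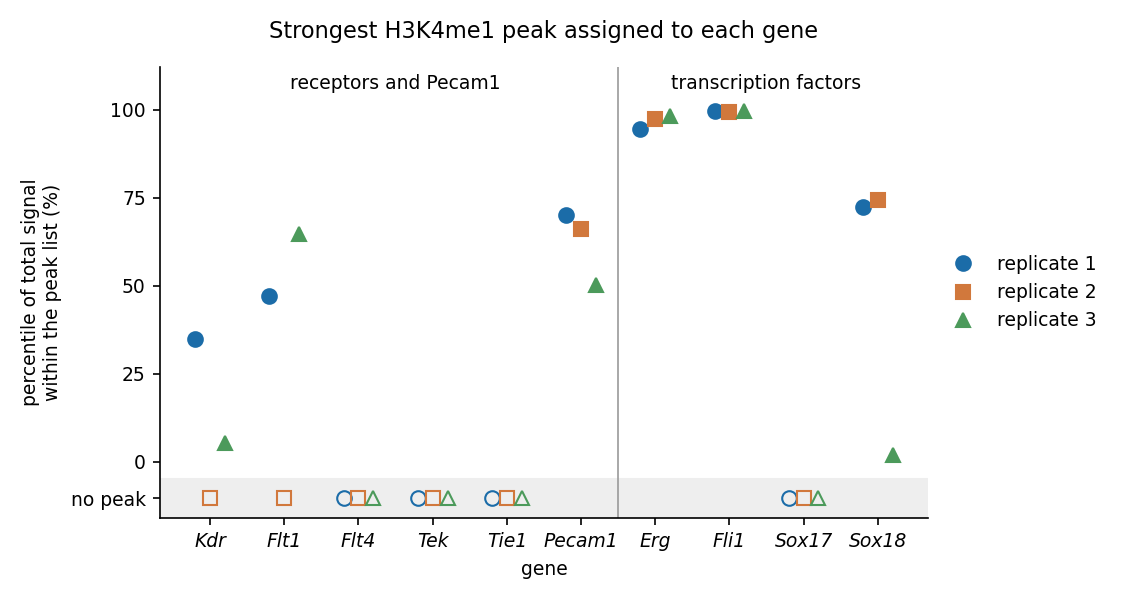
The strongest peak assigned to each gene is plotted as its percentile of total signal within the replicate's own list, where 100% is the strongest peak of the list, and open symbols in the grey band stand for no assigned peak. Erg and Fli1 lie between 94.5 and 99.7 in all replicates, Flt4, Tek, Tie1 and Sox17 have no peak, and Sox18 is at 74.3 in replicate 2 and at 1.76 in replicate 3.

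Long genes are touched more often, so the members are also set beside genes of their own length. Fli1 (120.7 kb), Tek (135.7 kb), Flt1 (164.4 kb) and Erg (227.4 kb) are in the class of 100 to 250 kb, where 42.7% of genes had a peak in all replicates. Of these 4 members, Fli1 and Erg did and Tek and Flt1 did not. Pecam1 (96.4 kb) is in the class of 50 to 100 kb, with a background of 23.0%. Tie1 (18.9 kb), Flt4 (43.5 kb) and Kdr (45.6 kb) are in the class of 10 to 50 kb, with 12.2%, and none of the 3 had a peak in every replicate. Sox17 (6.42 kb) and Sox18 (1.81 kb) are in the class up to 10 kb, with 7.10%, and only Sox18 had.

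Some peaks inside a window lie closer to the start of another gene. When only peaks whose nearest start site was the gene's own were counted, 5, 4 and 5 members had a peak in replicates 1, 2 and 3, or 4.67 ± 0.577 (SD, n = 3) on average. The gene lost in replicate 1 was Flt1. Pecam1, Erg, Fli1 and Sox18 still had a peak in all 3, while the background fell to 12.7% of all genes.

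Peaks at start sites were seen at factors and at no receptor. A peak within 1 kb of an annotated start site was present at Erg, Fli1 and Sox18 in each replicate, 3 of 10 members, and at 0 of the 6 receptor and adhesion genes in any replicate. Among all genes 12.5%, 12.1% and 8.74% had such a peak in replicates 1, 2 and 3, and 6.15% in all 3. The distance from any Kdr start site to the nearest peak was 35.8 kb in replicate 1, 573.1 kb in replicate 2 and 79.4 kb in replicate 3. For Flt1 it was 166.2, 671.4 and 78.9 kb. For Pecam1 it was 10.6, 38.5 and 39.1 kb, and the peak at 10.6 kb was nearer to the start of another gene.

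Kdr, the main signalling receptor for VEGF, had 1 weak peak in each of 2 replicates, and they did not lie at the same place. The gene spans chr5:75932827-75978458 on the minus strand. In replicate 1 a peak at chr5:75939202-75942677 lay in intron 27, counted in the longest annotated coding transcript, with a total signal of 21541 at percentile 34.8. The total signal is the sum of overlapping fragments over the bases of a peak, and the percentile is the percent of peaks in the same list with a total at or below it. In replicate 3 a peak at chr5:75896882-75899080 lay 33.7 kb beyond the 3′ end, with a total signal of 20300 at percentile 5.31. In replicate 2 the nearest peak was 527.5 kb from the gene body, and the start site nearest to it was that of Kit.

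Flt1, a high-affinity VEGF receptor that limits the ligand left for Kdr, spans chr5:147561604-147726011 on the minus strand. A region at chr5:147554079-147560557, just past its 3′ end, had a peak in replicates 1 and 3, at percentiles 47.0 and 64.6. The highest pileups of both peaks lay 36 bp apart. The start site of Pan3, at 14.8 kb from the region, was nearer to it than that of Flt1. A peak in intron 12 at chr5:147644204-147647102 was called in replicate 3 alone, at percentile 24.4. In replicate 2 the nearest peak was 507.0 kb away.

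Flt4, the receptor for VEGF-C in lymphatic vessels, lay far from peaks in all replicates. Its gene body at chr11:49609263-49652739 was 110.5, 109.6 and 110.4 kb from the nearest peak in replicates 1, 2 and 3, and Gfpt2 had the start site nearest to that peak each time. Tek, at chr4:94739289-94874976, was 141.8, 177.6 and 141.8 kb from the nearest peak, and here the start of Jun was the nearest to that peak. Tie1, at chr4:118471191-118490061, was 26.2, 33.6 and 33.7 kb from the nearest peak, which lay closest to 2610528J11Rik in replicate 1 and to Cdc20 in replicates 2 and 3. Neither angiopoietin receptor had a peak within reach by either part of the rule.

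The promoter of Tek, without a peak in any replicate, is shown beside that of Erg, which lies inside a peak in all 3. Both are the 250 bases before the start in RefSeq on GRCm38, in the direction of transcription and with the same strings in capitals.
Tek, chr4:94739039-94739288, plus strand: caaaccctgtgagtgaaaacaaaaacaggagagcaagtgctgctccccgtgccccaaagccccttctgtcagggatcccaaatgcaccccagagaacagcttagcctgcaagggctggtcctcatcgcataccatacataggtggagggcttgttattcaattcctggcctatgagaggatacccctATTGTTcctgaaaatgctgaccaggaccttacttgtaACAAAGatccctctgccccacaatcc
Erg, chr16:95586594-95586843, minus strand: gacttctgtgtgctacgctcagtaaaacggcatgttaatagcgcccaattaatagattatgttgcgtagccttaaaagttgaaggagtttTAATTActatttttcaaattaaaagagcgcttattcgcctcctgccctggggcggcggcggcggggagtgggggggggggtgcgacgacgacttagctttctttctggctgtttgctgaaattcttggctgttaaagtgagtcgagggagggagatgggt
The Tek sequence holds 2 SOX strings and the Erg sequence 1 homeobox string. RefSeq promoter windows, which add 50 bases after the start, were matched for 6 of the 10 members, namely Kdr, Flt1, Flt4, Tek, Tie1 and Erg, with 8 windows in all. The ETS string was present in 3 of the 8 windows (37.5%), at Flt1, Tie1 and Erg, beside 34.1% of 20061 windows of protein-coding genes. The GATA string was present in 2 of 8 (25%), at Tek and Erg, beside 9.42%. With so few windows 1 more or less moves these shares widely, and a match does not show that a factor binds.

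Pecam1 was the only receptor or adhesion gene of the members with peaks in all replicates, and all of them lay in the 3′ part of the gene. It spans chr11:106654217-106750628 on the minus strand. The stronger region, in intron 15 at chr11:106657145-106661118, had total signals of 43168, 62754 and 35161 in replicates 1, 2 and 3, at percentiles 70.0, 66.1 and 50.1, a mean of 62.0 ± 10.6 (SD, n = 3). The start site nearest to this region was that of Tex2. The other region, in intron 13 at chr11:106672318-106676493, was nearest to a start of Pecam1 itself and had total signals of 41199, 36163 and 21585. Its percentiles of 68.3, 36.3 and 11.6 gave a mean of 38.7 ± 28.5 (SD, n = 3), so the rank of the peak varied widely although its highest pileup hardly moved. Replicate 3 was the lowest in both regions.

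Fli1 carried the peak with the highest rank of the 10 genes in each replicate. It spans chr9:32422204-32542861 on the minus strand and was assigned 12, 9 and 10 peaks in replicates 1, 2 and 3. These formed 11 regions, and 8 of them were called in every replicate. A region of 16.4 kb over the start site, chr9:32536690-32553126, had total signals of 445458, 600491 and 397166. That placed it at percentiles 99.5, 99.4 and 99.7, a mean of 99.6 ± 0.130 (SD, n = 3), and at ranks 80, 73 and 43 of the lists. Its highest pileup lay upstream, at -5.84 kb from the start site and at the same base in all replicates.

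Further strong regions followed along the first introns of Fli1. A region of 9.54 kb in intron 1, chr9:32502427-32511970, had percentiles of 98.3, 97.1 and 97.4. Another of 12.1 kb in the same intron, chr9:32512978-32525089, had 97.3, 96.2 and 93.3. A region in intron 2, chr9:32465558-32471224, had 90.4, 88.9 and 89.8. Upstream, a region at chr9:32561425-32568985 with its highest pileup at -24.96 kb had 72.8, 78.9 and 87.0. The replicates differed by less than 5 percentile points in each of the 3 intronic regions and by more in the upstream one. Toward the 3′ end, 3 regions in introns 4 and 5 were nearest to the start site of Kcnj1, the next gene, at percentiles from 39.5 to 68.2. The peak of the third of these was not called in replicate 3.

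Erg, the other ETS factor, was assigned more peaks than Fli1 but with lower ranks. It spans chr16:95359169-95586593 on the minus strand and was given 15, 11 and 11 peaks in replicates 1, 2 and 3. These formed 15 regions, and 7 had a peak in all replicates. The strongest was not at the start but at the 3′ end, a region of 15.4 kb at chr16:95362080-95377486 with its highest pileup in intron 10. Its percentiles were 94.5, 97.2 and 98.2, a mean of 96.6 ± 1.90 (SD, n = 3). The peak behind this percentile was nearest to the start of Kcnj15 in replicates 1 and 3, at 83.3 and 83.0 kb. In replicate 2 it was nearest to that of Erg, at 81.8 kb. Among peaks nearest to a start of Erg itself, the highest percentiles were 87.3, 97.2 and 76.2 in replicates 1, 2 and 3. The start-site region of 7.42 kb, chr16:95579939-95587355, had percentiles of 70.4, 81.9 and 76.2, a mean of 76.2 ± 5.72 (SD, n = 3).

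Of the other 13 Erg regions, 5 had a peak in all replicates. A region in intron 3, chr16:95420414-95425657, had percentiles of 77.8, 74.2 and 74.7, a mean of 75.6 ± 1.93 (SD, n = 3), and is the one whose sequence is printed above. Another in the same intron, chr16:95465886-95470424, had 74.5, 61.6 and 55.4. Upstream of the start, regions with their highest pileups at -15.4 and -32.8 kb were present in all replicates, at mean percentiles of 28.8 ± 16.9 and 58.4 ± 2.54 (SD, n = 3). A region past the 3′ end, nearest to the start of Kcnj15, had 44.7, 69.0 and 23.4. The 4 regions seen in 2 replicates and the 4 seen in 1 had mean percentiles from 13.9 to 45.2.

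**Figure D2:**
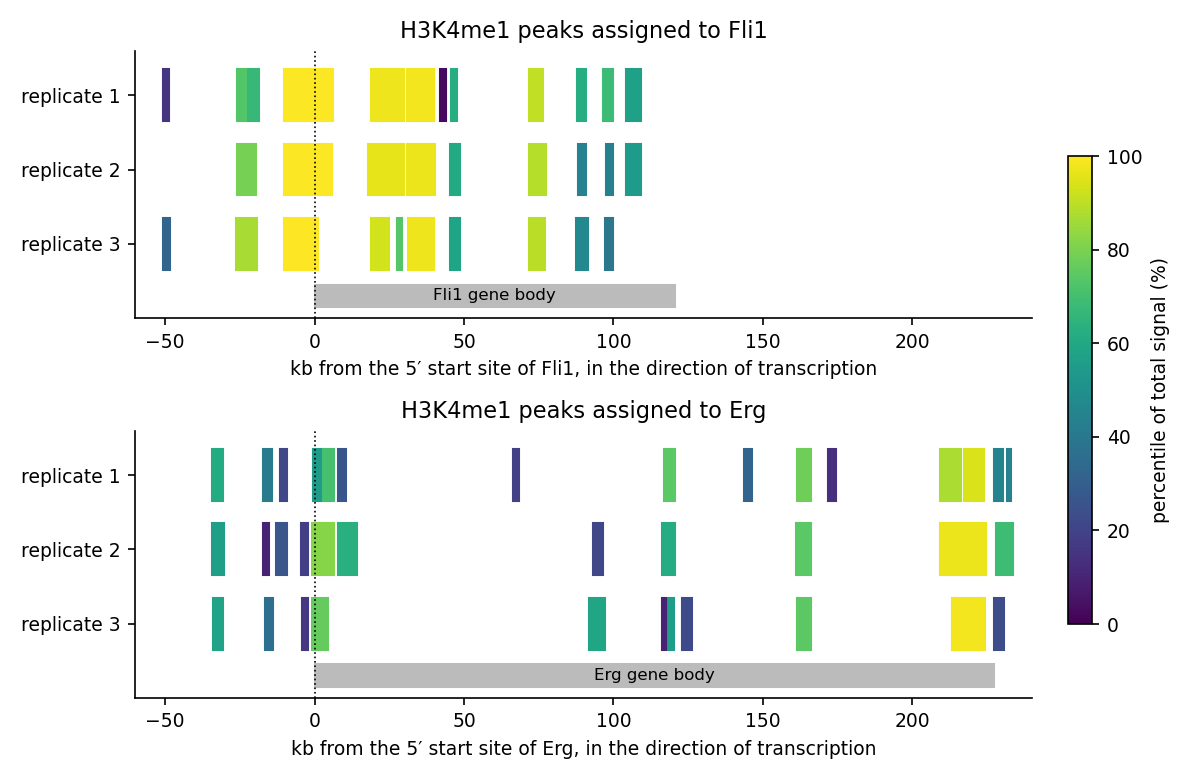
Peaks assigned to Fli1 and Erg are drawn to scale in each replicate against the distance in kb from the 5′ start site in the direction of transcription, coloured by percentile of total signal, with the gene body in grey. Fli1 is marked most strongly around its start and along intron 1, and Erg most strongly near its 3′ end, in all 3 replicates.

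The SoxF factors differed from each other. Sox17, at chr1:4490931-4497354, was 520.7 kb from the nearest peak in replicates 1 and 2 and 5066 kb in replicate 3, so no peak was near the gene in any of them. Sox18, at chr2:181669836-181671640 on the minus strand, had 1 region, chr2:181669923-181675821, in all replicates. Its total signals were 46598, 78077 and 19665 in replicates 1, 2 and 3, which is percentile 72.5, 74.3 and 1.76. The mean of 49.5 ± 41.4 (SD, n = 3) stands for no replicate, and without replicate 3 it was 73.4. The peak covered the start site in replicates 1 and 2 and began 294 bp upstream of it in replicate 3, where it was among the weakest peaks of the list.

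Across all members 33 regions were found, of which 18 had a peak in 3 replicates, 7 in 2 and 8 in 1. Of all 19251 regions of the series, 46.3% had a peak in 3 replicates. Fli1 and Erg held 15 of the 18 regions, Pecam1 2 and Sox18 1. They also held 27 of 32 assigned peaks in replicate 1, 20 of 23 in replicate 2 and 21 of 27 in replicate 3, and 91.8% ± 1.20 (SD, n = 3) of the assigned signal, with 91.3% in replicate 1. All assigned peaks together held 0.250%, 0.263% and 0.248% of the signal in the lists of replicates 1, 2 and 3. Without Fli1 and Erg the shares were 0.0217%, 0.0180% and 0.0225%.

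Coverage is the percent of bases of the gene body and its flanks that lie under a peak. It still depends on gene length, because the flanks are fixed and 1 peak can cover much of the window of a short gene. Sox18 had 42.0%, 49.3% and 28.0% in replicates 1, 2 and 3, or 39.8% ± 10.8 (SD, n = 3) on average, in a window that is mostly flank. Its value in replicate 3 came from 1 peak at percentile 1.76. Fli1 had 39.4%, 39.5% and 29.3%, a mean of 36.1% ± 5.86 (SD, n = 3). Sox18 and Fli1 overlapped in their replicate values and both lay above Erg, with 18.0%, 20.5% and 16.1%. Pecam1 had 7.63%, 5.46% and 5.75%, below every replicate of Erg. Kdr reached 6.25% in replicate 1 and 0 in the others, and Flt1 had 1.85%, 0 and 3.93%. The mean over the 10 members was 10.4% ± 1.84 (SD, n = 3), with 11.5% in replicate 1, and over all genes 3.64% ± 0.810 (SD, n = 3), while the median over all genes was 0 in each replicate.

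**Figure D3:**
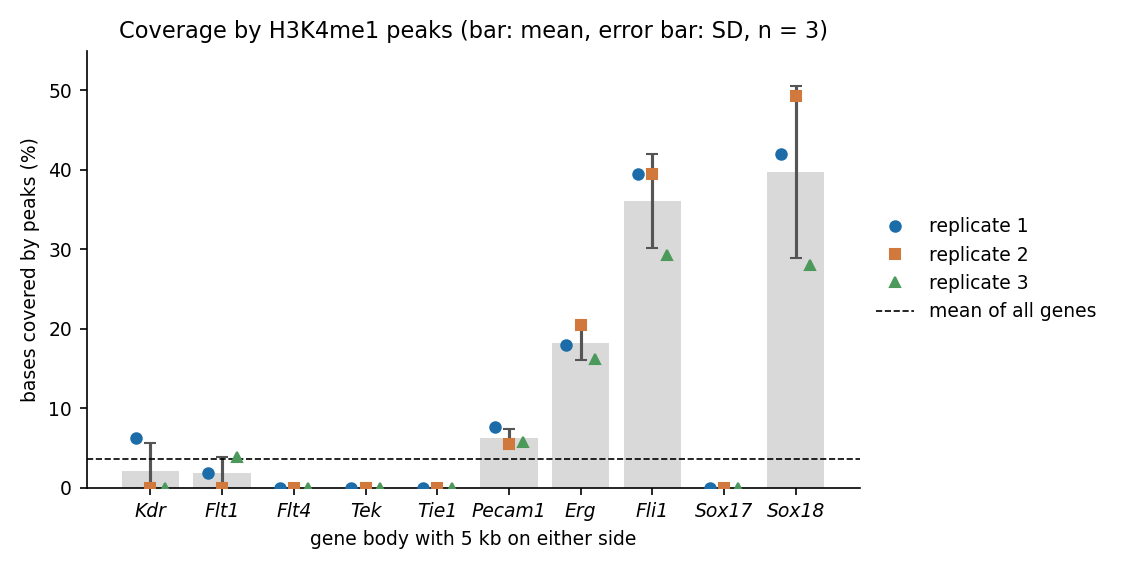
Bars show the mean percent of bases of the gene body and 5 kb on either side that lie under a peak, error bars the SD over 3 replicates, points the replicates and the dashed line the mean of all genes, 3.64%. Sox18, Fli1 and Erg lie above that line in all replicates by a wide margin, Pecam1 by a small one, and the other members at or near 0 in most replicates.

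Over the whole series, the signal of replicate 3 against replicate 2 differed with the base composition of the regions, and the member regions are set beside this. Over 8916 regions with a peak in all replicates, the share of signal in replicate 3 against replicate 2 had a median log2 ratio of 0.92 in the 10% of regions lowest in GC and -0.90 in the 10% highest. The 18 member regions had a median GC of 47.2%, beside 47.3% for all, and a median log2 ratio of -0.04. The Sox18 region had the highest GC of the 18, at 55.7%, and a log2 ratio of -1.58, below the median of the 10% highest in GC. Between replicates 1 and 2 its log2 ratio was -0.48. The part of GC content in the low rank of Sox18 in replicate 3 was not tested.

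**Figure D4:**
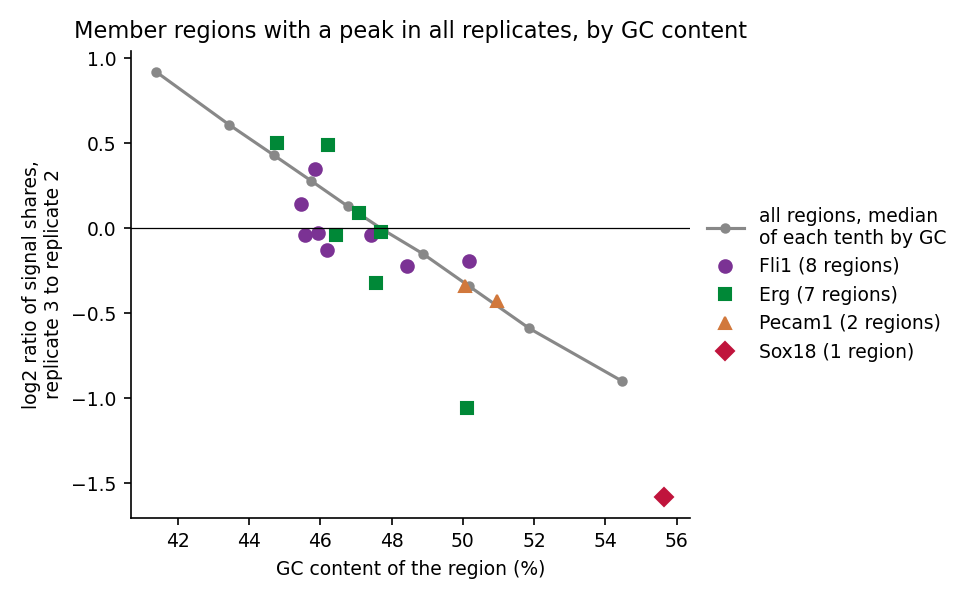
Each point is 1 of the 18 member regions with a peak in all replicates, placed by its GC content in percent and by the log2 ratio of its share of list signal in replicate 3 to that in replicate 2, and the grey line gives the medians of all 8916 regions, split by GC into 10 equal groups. The Sox18 region is farthest to the right and lowest, at 55.7% and -1.58, while the Fli1 regions lie between -0.22 and 0.35.

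The ligands and coreceptors of these receptors, listed with the phosphatase gene Ptprb, are set beside the receptors as counts, since the difference was not tested. Which cells of the pad carry these peaks was not measured. Of 11 genes, 7, 7 and 9 had a peak in replicates 1, 2 and 3, and 6 in all 3, whereas of the 6 receptor and adhesion genes 3, 1 and 2 had a peak and 1 in all (16.7%). By the same rule 24.9%, 22.6% and 19.6% of all genes had a peak in replicates 1, 2 and 3, and 15.5% in all 3. Vegfa, the main ligand of Kdr and Flt1, had percentiles of 88.4, 84.8 and 79.3 for its strongest peak, and Pgf, a ligand of Flt1, had 90.7, 90.7 and 59.5. Angpt2, which binds Tek, had 95.6, 94.6 and 96.4, and Angpt4, another Tek ligand, had 90.3, 88.0 and 52.7. Nrp2, a coreceptor for VEGF-C, had 97.5, 96.0 and 95.4, and Nrp1, a coreceptor for VEGF-A, had 26.8, 1.20 and 56.5. These 6 had a peak in every replicate, and neuropilins are also made by neurons and mesenchyme. For Nrp1 the only peak of replicate 2 overlapped none of those in replicates 1 and 3.

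The other genes of this list had fewer peaks. Angpt1, the main activating ligand of Tek, Vegfc, the ligand of Flt4, and Ptprb, a phosphatase that acts on Tek, had a peak in replicate 3 alone, at percentiles 31.99, 42.5 and 41.9. Vegfb, a ligand of Flt1, had one in replicates 1 and 2, at 70.4 and 70.3, that overlapped the start site of Plcb3. Vegfd had 0 peaks. Read by receptor, Flt4 and its ligand genes Vegfc and Vegfd had together 1 gene with a peak in 1 replicate, while Tek had no peak although Angpt2 and Angpt4 had peaks in all.

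A further 26 endothelial genes give the wider picture of that cell type. Peaks were found at 11 genes in replicate 1, 11 in replicate 2 and 6 in replicate 3, and 6 genes had one in all 3 (23.1%, beside 15.5% of all genes). Without replicate 3 the number in all replicates was 11, and in replicate 1 alone it was 11 as well. The 6 genes were Acvrl1, a receptor for BMP9, Gata2, Prox1, a factor of lymphatic vessels, Esam, an adhesion molecule, Lyl1 and Ramp2. In replicates 1, 2 and 3 the strongest peak was at percentiles 29.2, 72.2 and 2.24 for Prox1 and 60.3, 30.9 and 1.74 for Esam. For Lyl1 it was at 99.1, 100 and 43.2, and for Ramp2 at 79.1, 82.4 and 4.99. The Prox1 peaks of replicates 1 and 3 did not overlap each other. The peaks counted for Ramp2 were nearest to the start of Wnk4, and the strongest peaks counted for Lyl1 in replicates 1 and 2 to that of G430095P16Rik. Under the rule of the gene's own start site 4 of the 6 were left, without Ramp2 and Lyl1. That is 4 of 26 genes, beside 12.7% of all genes by the same rule.

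Several genes in common use to define endothelium were among those without a peak. Cdh5, the junctional cadherin of endothelium, Emcn, Cldn5, Egfl7, Robo4, Icam2, Nos3, Aplnr, S1pr1, Lyve1 and the factors Tal1, Lmo2, Etv2, Sox7 and Hhex, 15 of 26, had no peak in any replicate, beside 71.2% of all genes. Eng, Dll4, Vwf, Plvap and Mmrn2 had one in replicates 1 and 2 and none in replicate 3. The peaks counted for Plvap were nearest to the start of Gtpbp3. Only the 6 genes of the 26 with a peak in all replicates were compared with the members by their log2 shares of signal. The 3 of them most like the median of Pecam1, Erg, Fli1 and Sox18 were Acvrl1, Gata2 and Ramp2, at Euclidean distances of 0.892, 2.86 and 3.86. The mean shares were 0.141% for Fli1, 0.0690% for Erg, 0.00931% for Pecam1 and 0.00541% for Sox18. The median thus lay between Erg and Pecam1, and nearness to it is not likeness to any 1 member. Acvrl1 had percentiles of 94.7, 94.3 and 80.0 and Gata2 of 95.1, 93.0 and 23.4. Gata2 is also used by other cell types.

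Lists of other cells place the members within the pad. Beside them, 24.9%, 22.6% and 19.6% of all genes had a peak in replicates 1, 2 and 3, and 15.5% in all 3. Of 24 facial mesenchyme genes 22, 23 and 20 had a peak in replicates 1, 2 and 3 and 19 in all, among them Prrx2, Alx4, Twist1, Pax3, Osr1 and Msx1 at the highest mean percentiles, from 94.5 to 99.7. Over all 19 the mean percentiles ran from 45.1 to 99.7, beside 99.6 for Fli1, 96.6 for Erg, 62.0 for Pecam1 and 49.5 for Sox18. Of 14 surface ectoderm genes 8, 8 and 4 had a peak and 4 in all, among them Grhl3, Grhl2 and Trp63. Of 12 genes of pericytes and mural cells, which wrap vessels, 6, 7 and 5 had a peak and 4 in all. These were Pdgfrb, at a mean percentile of 99.8, Cspg4, Anpep and Mcam, and Pdgfrb and Cspg4 are also expressed in mesenchyme. The strongest peak counted for Anpep was nearer to the start of another gene in each replicate. Under the rule of the gene's own start site 3 of the 12 were left, beside 12.7% of all genes.

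Blood cells share Erg, Fli1 and Pecam1 with endothelium, and lists of their other genes are given here. Several of these genes are shorter than 10 kb, a class in which 7.10% of all genes had a peak in all replicates. Whether blood cells contribute to the peaks at Erg, Fli1 and Pecam1 was not tested. Of 14 macrophage genes 1 had a peak in each replicate, the same 1 in all, Cx3cr1, where the peak overlapped the start of Csrnp1. Of 14 erythroid and platelet genes 0, 1 and 1 had a peak. Of 24 adult kidney genes 2, Cubn and Slc12a1, had a peak in all replicates, the peak of Slc12a1 being nearest to the start of Dut, and of 14 liver genes 1, 0 and 0 had a peak. Ptprc, Spi1, Csf1r, Gata1 and Klf1 had no peak in any replicate, beside 71.2% of all genes. Shares of genes with a peak by list ran from 79.2% in all replicates for facial mesenchyme through 4 of the 10 members to 7.14% for macrophages and 0 for erythroid and platelet genes. Over all genes 15.5% had a peak in all replicates, and 24.9%, 22.6% and 19.6% in replicates 1, 2 and 3.

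**Figure D5:**
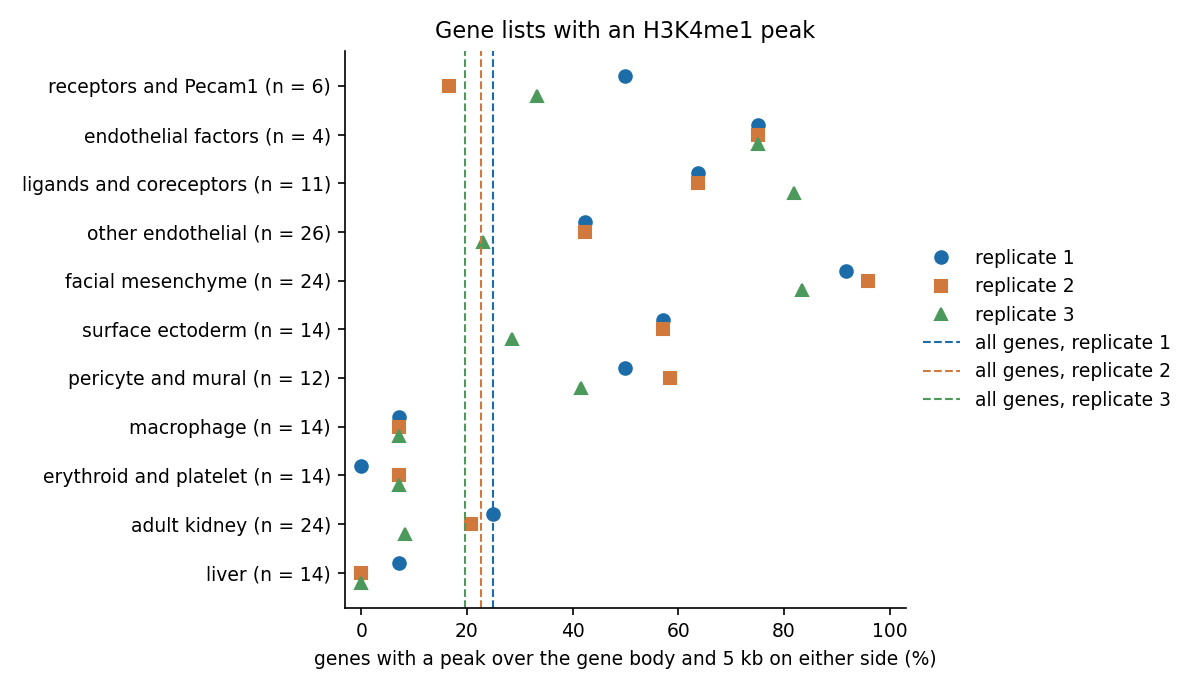
The percent of genes in each list with a peak over the gene body and 5 kb on either side is shown for each replicate, with dashed lines for all genes, 24.9%, 22.6% and 19.6% in replicates 1, 2 and 3. Facial mesenchyme lies highest, at 83.3% to 95.8%, the 4 endothelial factors lie at 75% in every replicate, the receptors with Pecam1 between 16.7% and 50%, and macrophage, erythroid, platelet and liver genes below 8%.

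Of the strings searched under the highest pileups of member peaks, all but GATA occurred in a share of windows within 1 SD of that over all peaks. The ETS string was present in 37.5%, 30.4% and 29.6% of the windows of 300 bp in replicates 1, 2 and 3, or 32.5% ± 4.33 (SD, n = 3) on average, beside 36.2% of 43748 windows of all peaks. The SOX strings were present in 31.5% ± 5.48 (SD, n = 3) beside 30.0%, the homeobox string in 6.0% ± 1.54 beside 5.01% and the combined FOX and ETS string in 1.04% ± 1.80 beside 2.56%. In replicate 1 these shares were 31.2%, 6.25% and 3.12%. The GATA string was present in 12.5%, 21.7% and 25.9%, a mean of 20.1% ± 6.87 (SD, n = 3), beside 10.6%, which is 4 of 32, 5 of 23 and 7 of 27 windows. The same regions were mostly seen in several replicates and belong largely to Fli1 and Erg, so these windows are not independent of each other.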

How the data were processed

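H3K4me1 CUT&Tag peak lists of 3 whisker pads were analysed, grouped by their titles. SEACR was run by the authors on every replicate by itself, in stringent mode and with no IgG control, to keep the 1% of blocks with the most signal. The submitters' processing notes also name Bowtie2 2.3, SAMtools 0.1.19, bedtools, SEACR 1.3 and mm10. The treatment of duplicate reads is not given in the sources used here. Both deposited signal columns, the total signal and the maximum signal of a peak, held whole numbers in 100% of peaks and are not scaled to depth, so only ranks, percentiles and shares within a list were compared. Read totals were not analysed here. The lists held 16788, 12969 and 13998 peaks, and their weakest peaks had total signals of 14265, 24247 and 19337 in replicates 1, 2 and 3. A list with a higher floor can miss peaks that another holds.

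Every peak ended within the GRCm38 (mm10) chromosome lengths. Genes and 54050 distinct protein-coding start sites came from GENCODE M21, and coordinates are 1-based. The nearest start site was measured from the peak edge, peaks of different replicates were merged at 1 bp overlap, and intron numbers refer to the longest coding transcript. Sequences and GC content came from the RefSeq copy of GRCm38, promoters from the RefSeq table, which was searched by symbol. Motif strings may overlap each other. The members and the 11 lists (163 genes, 0 in more than 1 list) were chosen with earlier results of these data known. Genes named were all members, the genes nearest to their peaks, all ligands and coreceptors, and from the other lists up to 6 genes with a peak in all replicates by mean percentile. The values of 2 listed genes are not reported by themselves here. The genes without a peak, those of the endothelial list with a peak in 1 or 2 replicates, and the single genes of the blood lists were named after their values were seen. Scripts ran under Python 3.11.15 with pandas 2.3.3, numpy 2.4.6, pysam 0.24.0 and matplotlib 3.10.9, and the assignment was tested on simulated data. No p-value was computed. The titles number the pads, but nothing in the labels says that they came from separate embryos, so the SD may be partly technical. Alternatives covered the flank, the depth of the lists, the overlap, the assignment, the signal measure, the windows and each replicate left out. Counting only peaks nearest to a gene's own start, replicate 1 alone and the motif shares with each replicate left out were chosen after seeing the data.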

Additional observations from a re-analysis of the deposited data

How the results depend on the processing

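Of 95 alternative values for 15 results, 73 stayed close to the reported value and 22 moved. Close means within 1.5 times for a count and within 1 SD over the replicates for any other value. For results judged by SD, leaving out 1 of 3 replicates always moves the mean by less than 1 SD. Those values were therefore bound to count as close. The strongest member peak lay at Fli1, so the same values were counted again under Fli1 itself. The percentile of the strongest member peak, at Fli1, was 98.95 by maximum signal and 98.78 by total signal divided by length, and 99.49 to 99.61 with each replicate left out. By maximum signal and by total signal divided by length, the strongest Erg peak was at 89.2 and 90.6, beside 96.6 by total signal. For Pecam1 these were 74.7 and 56.4 beside 62.0, and for Sox18 52.3 and 32.3 beside 49.5. Over the gene body alone the mean coverage of members was 12.3%, and it was 9.90% to 11.5% with each replicate left out. The number of other endothelial genes with a peak in all replicates was 6 as reported. It was 3 over the gene body alone, 1 in the stronger 50% of each list, 2 in the strongest 10000 peaks, 11 in replicate 1 alone and 6 to 11 with each replicate left out, where 11 was without replicate 3. The cause was not tested, apart from fewer peaks or replicates. In windows of 500 bp the motif shares were 53.0% for ETS, 1.04% for FOX and ETS, 50.1% for SOX, 25.5% for GATA and 8.28% for homeobox strings, beside 52.9%, 4.43%, 46.7%, 18.7% and 9.49% for all peaks. In whole regions, with a median length of 3976 bp for members and 3649 bp for all, they were 100% for ETS, 39.4% for FOX and ETS, 97.0% for SOX, 97.0% for GATA and 57.6% for homeobox strings, beside 97.7%, 32.03%, 97.5%, 82.0% and 58.9%. With each replicate left out they were 30.0% to 34.0% for ETS, 0 to 1.56% for FOX and ETS, 28.7% to 34.1% for SOX, 17.1% to 23.8% for GATA and 5.30% to 6.83% for homeobox strings. The number of members with a peak ran from 4.5 to 5.5 with each replicate left out and was 4.0 in the stronger 50% of each list. The number of member regions in all replicates ran from 20 to 21 with each replicate left out and was 12 in the stronger 50%. No paired analysis was possible because the only samples that share the replicate numbers are the IgG samples, which were not analysed here. The lists hold the top 1% of blocks of a whole pad, so weaker marking of a gene used by few cells would not appear in them.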

Other observations

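Peaks near the members often lay closer to the start of a neighbouring gene. This held for the region past the 3′ end of Flt1 (Pan3), the stronger Pecam1 region (Tex2), 3 Fli1 regions (Kcnj1) and 1 Erg region (Kcnj15). In the strongest Erg region it held for the strongest peaks of replicates 1 and 3 (Kcnj15). Which gene such a region acts on was not measured.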
